A study of Mus musculus with 24 samples.

Results

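Chemokines and chemokine receptors were followed as 32 genes of the 55421 in the count table. The members were chosen by symbol, each of which matched 1 Ensembl gene identifier, and comprised 22 ligands and 10 receptors. Of these, 29 had enough reads to be tested and 3 did not, namely the ligands Ccl8 and Ccl24 and the receptor Cxcr3. The cells were bone marrow-derived macrophages (BMDMs) grown with 10 ng/ml GM-CSF and 2 ng/ml TGF-β, a mixture meant to give alveolar-like macrophages. Marrow came from C57BL/6J wildtype (WT) mice or from AhR-deficient mice (B6.129-Ahr tm1Bra/J), in which the aryl hydrocarbon receptor, a ligand-activated transcription factor, is lost from all tissues. The mice were of both sexes and 7 to 14 weeks old. The 4 groups of 6 libraries were unstimulated WT, unstimulated AhR-deficient, LPS-stimulated WT and LPS-stimulated AhR-deficient BMDMs, with 6 animals per group. LPS, a TLR4 ligand from bacterial walls, was given at 97 EU/ml on day 6 for 24 h, and by the treatment protocol the Ca2+ ionophore A23187 followed at 5 µM for 10 min. Since the deletion is present throughout the culture, the genotype comparisons cover differentiation as well as the response to LPS.

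Chemokines are small secreted proteins that guide migrating cells through G protein-coupled receptors. Ligands of CXCR2 attract neutrophils, ligands of CCR2 and CX3CR1 attract monocytes, and ligands of CXCR3, CXCR6, CCR4 and CCR8 attract subsets of lymphocytes. Macrophages are a major source of these ligands when TLR4 is engaged, and atypical receptors bind ligands without signalling in the usual way. In the mouse most inducible chemokine genes lie in a few clusters of tandem copies.

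The libraries held from 45106052 to 76992663 counted fragments, and values are given as CPM, the counts of a gene per 1000000 counts of a library scaled by its TMM factor. The 8 macrophage markers summed to 14985 to 29808 and 20621 to 34243 CPM in unstimulated, and to 12074 to 28365 and 16913 to 19200 CPM in LPS-stimulated WT and AhR-deficient libraries, with Lyz2 at 8451 CPM or more and Adgre1 at 357 CPM or more in every library. LPS called 2 of the 8 higher and 1 lower in WT, and 3 higher and 1 lower in AhR-deficient BMDMs, and between genotypes 1 (Fcgr1) was called higher after LPS and none without stimulation. The alveolar macrophage marker Siglecf was present but low after LPS, at 3.53 to 11 CPM in WT and 5.75 to 21.1 CPM in AhR-deficient BMDMs. The sum of all 6 alveolar macrophage markers was 5323 to 8310 and 5318 to 7882 CPM in unstimulated, and 2878 to 7018 and 5212 to 8198 CPM in LPS-stimulated WT and AhR-deficient libraries. LPS called 4 of the 6 lower and 1 higher in WT, and 3 lower and 1 higher in AhR-deficient BMDMs. Between genotypes 1 was called higher in each state, Siglecf without stimulation and Car4 after LPS. Lymphocyte markers summed to at most 1.26 CPM in any library. Ahr itself was 28.3 ± 12.2 CPM in unstimulated WT and 7.42 ± 2.39 CPM in unstimulated AhR-deficient BMDMs, a called difference of -1.93 on the log2 scale. After LPS it was 16.8 ± 7.63 CPM in WT and 43.1 ± 16.2 CPM in the libraries labelled AhR-deficient, called higher there by 1.36. Ahr was counted over all of its exons, so these values do not check the deletion, and the genotypes are taken from the labels. Of the spread within groups, 73.6% lay on 1 principal component of log2(CPM + 0.5). Libraries 19 (unstimulated AhR-deficient) and 33 (unstimulated WT) stood farthest out on it, at 0.379 and 0.365. Libraries 37, 39 and 38 followed at 0.301, 0.300 and 0.279. The slope on gene length was 0.0952, 0.114, 0.199, 0.181 and 0.221 in libraries 19, 33, 37, 39 and 38, and 0.492 to 0.585 in libraries 25 to 32. The main fit held no term for either measure. Libraries 34 and 38 (both WT) had few Y-linked counts, at 0.0316 and 0.0979 CPM where the other libraries had 155 CPM or more. The library numbers form 3 runs of 8, each with 2 libraries of every group.

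LPS changed most of the chemokine system in both genotypes. A gene was called when edgeR's quasi-likelihood test gave an adjusted p of at most 0.05 and the change was at least 2-fold. In WT BMDMs 22 of the 29 tested members were called, 19 higher and 3 lower, against 24.9% of all tested genes (13.2% higher and 11.8% lower). In AhR-deficient BMDMs 24 were called, 21 higher and 3 lower, against 30.8% of all genes (15.1% higher and 15.7% lower). The 2 lists shared 21 genes with the same direction, which is 95.5% of the WT list and 87.5% of the AhR-deficient list. Ccl17 was called in WT BMDMs alone, and Ackr3, Ccr1 and Ccr3 in AhR-deficient BMDMs alone; the difference itself did not pass in edgeR for any of these 4 genes. With the run of 8 libraries as a factor it passed for Ccl17 (-1.46, adjusted p = 0.0172) and Ccr1 (0.88, adjusted p = 0.0474). The LPS effect on Ccr3 in WT was called by DESeq2 (1.61, adjusted p = 0.0465) and limma-voom (1.69, adjusted p = 0.0495). The 12 libraries of the comparison did not overlap for 20 members in WT (22.4% of all genes) and 21 in AhR-deficient BMDMs (28.5%). The median log2 fold change of the tested members was 3.75 in WT and 4.80 in AhR-deficient BMDMs, where the median of all tested genes was 0.03 and -0.03. Cxcl5, Cxcl11 and Cxcr5 had at most 22 counts over each unstimulated group and entered the test through the LPS groups, so a difference was built into their being tested. The same holds in AhR-deficient BMDMs for Ccl12, Ccr3 and Ackr3, with 21, 20 and 23 counts over the unstimulated group.

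**Figure D1:**
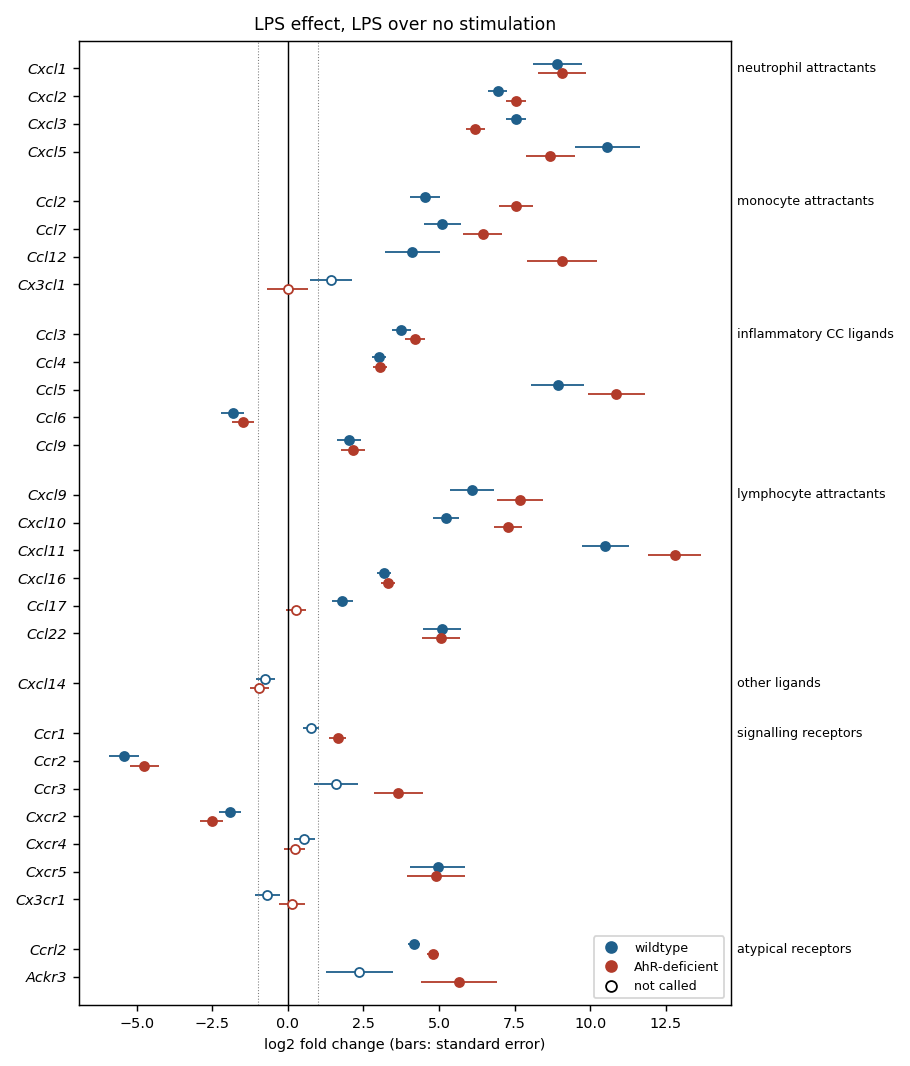
LPS effect on the 29 tested members, ordered by role. Points give the log2 fold change of LPS-stimulated over unstimulated BMDMs in each genotype with its standard error, filled where called. Most ligands lie far to the right of 0, while Ccl6, Ccr2 and Cxcr2, and with open points Cxcl14, lie to the left in both genotypes. The points for Cxcl5 in WT and Cxcl11 in both genotypes are fitted values against groups with 0 to 5 counts.

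The genotype comparisons called fewer members. Without stimulation 5 of 29 were called in AhR-deficient over WT BMDMs, 3 higher (Cxcl3, Cxcl5 and Ccl17) and 2 lower (Cxcl10 and Cxcr2), against 4.48% of all tested genes (0.916% higher and 3.57% lower). After LPS 6 of 29 were called, 5 higher (Cxcl5, Ccl2, Ccl12, Cxcl9 and Ccr2) and 1 lower (Cxcr2), against 8.36% of all genes (2.17% higher and 6.19% lower). Cxcl5 and Cxcr2 were called in both states with the same direction. The libraries of the genotypes did not overlap for 3 members without stimulation, 2 higher (1.71% of all genes) and 1 lower (3.44%), where 5.15% of all genes did so. After LPS they did not overlap for 3 members, 2 higher (2.59% of all genes) and 1 lower (4.53%), beside 7.11% of all genes. The median log2 fold change of the members was -0.13 without stimulation and 0.68 after LPS, beside -0.01 and -0.05 over all tested genes. After LPS 17 of the 20 tested ligands had a positive log2 fold change, and 10 of 20 had one without stimulation; these counts were the same with DESeq2 size factors and with total library size. Scaling by total library size in place of TMM moved the median of all genes by -0.22 after LPS, and by -0.34 and -0.48 in the LPS effects of WT and AhR-deficient BMDMs, and by -0.08 without stimulation. RNA from a whole culture does not tell fewer cells of a kind from less RNA per cell.

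**Figure D2:**
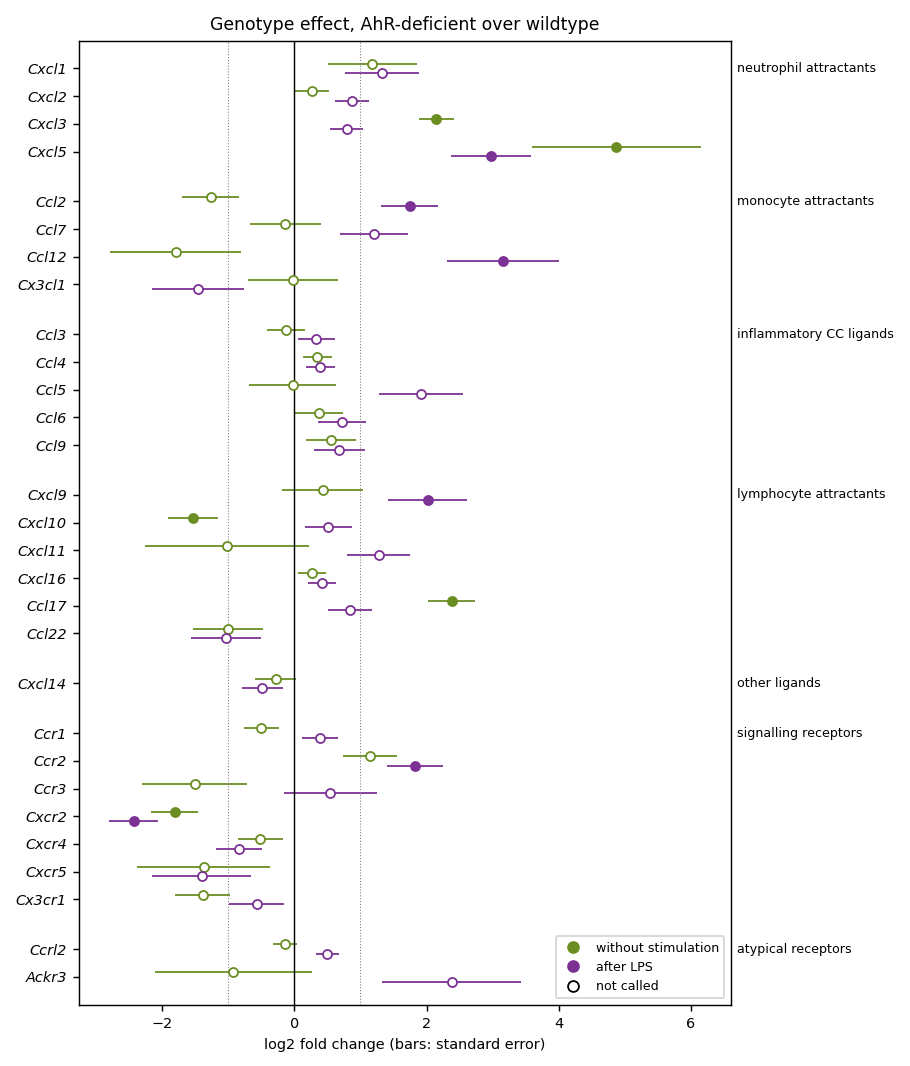
Genotype effect on the 29 tested members, ordered by role. Points give the log2 fold change of AhR-deficient over WT BMDMs without stimulation and after LPS with its standard error, filled where called. Cxcl3, Cxcl5 and Ccl17 stand to the right without stimulation, Cxcl5, Ccl2, Ccl12, Cxcl9 and Ccr2 after LPS, and Cxcr2 stands to the left in both states. The unstimulated point of Cxcl5 is a fitted value against a group with no counts.

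The neutrophil attractants Cxcl1, Cxcl2, Cxcl3 and Cxcl5, all ligands of CXCR2, rose steeply with LPS in both genotypes. Their genotype effect was positive for 4 of 4 in both states, also with DESeq2 size factors and with total library size, with 2 of 4 called higher without stimulation and 1 of 4 after LPS. Cxcl3 was the most abundant of them per length. In unstimulated WT BMDMs Cxcl3 ranged from 8.37 to 17 CPM with a median of 15.2, and in unstimulated AhR-deficient BMDMs from 32.4 to 93.9 CPM with a median of 60.3. Every AhR-deficient library was above every WT library. This was a rise of 2.15 ± 0.26 (log2, SE, adjusted p = 6.35e-06), or 4.43-fold. After LPS Cxcl3 ranged from 1743 to 3892 CPM in WT (median 2597) and from 3911 to 6282 CPM in AhR-deficient BMDMs (median 4173). The libraries again did not overlap, with the lowest AhR-deficient library just above the highest WT one, and the difference of 1.73-fold (adjusted p = 0.0387) was under the 2-fold limit of a call. The genotype effect on Cxcl3 was thus smaller after LPS than before it, and this difference passed the interaction test (-1.35 ± 0.35 on the log2 scale, adjusted p = 0.0279).

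Cxcl5, which in the lung is best known from epithelium, had no count in any unstimulated WT library. In unstimulated AhR-deficient BMDMs 3 of 6 libraries held 22 counts together, 0.0625 ± 0.0858 CPM (SD, n = 6), at least 8.52-fold above the level of 3 counts over the WT group. This call was lost without library 19 (adjusted p = 0.0511), without library 36 (0.0891), without both libraries with few Y-linked counts (0.0557), without libraries 19 and 33 (0.0727), and in limma-voom (0.447). After LPS Cxcl5 ranged from 1.83 to 5.39 CPM in WT (median 3.0) and from 16.3 to 33.5 CPM in AhR-deficient BMDMs (median 26). All AhR-deficient libraries were above all WT libraries, by 2.97 ± 0.60 (log2, adjusted p = 0.00224), or 7.85-fold. Within the runs of 8 the difference in log2(CPM + 0.5) lay between 1.77 and 3.54. LPS raised Cxcl5 in WT BMDMs at least 438-fold. In AhR-deficient BMDMs, with 22 counts before LPS, the fitted rise was 409-fold.

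Cxcl1 and Cxcl2, the mouse genes closest in use to human CXCL8, were not called between genotypes in the edgeR fit with all libraries and no covariate. Cxcl2 rose with LPS from 3.59 ± 0.742 to 440 ± 175 CPM in WT and from 4.31 ± 1.20 to 805 ± 304 CPM in AhR-deficient BMDMs. After LPS its difference between genotypes was 1.83-fold (adjusted p = 0.0218), under the 2-fold limit, and the libraries overlapped. Without library 37 it was 1.09 on the log2 scale and called (adjusted p = 0.00296). Cxcl1 rose from 0.182 ± 0.168 to 85.8 ± 58.8 CPM in WT and from 0.405 ± 0.221 to 215 ± 165 CPM in AhR-deficient BMDMs. Its genotype effect after LPS was 1.32 ± 0.56 on the log2 scale and did not pass (adjusted p = 0.146). It passed in limma-voom (1.34, adjusted p = 0.0307) and with the run of 8 libraries as a factor (1.29, adjusted p = 0.0216). One AhR-deficient library, number 39, held 530 CPM of Cxcl1, while the median of its group was 148 CPM.

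The stretches before the start sites of Cxcl1, Cxcl2 and Cxcl3 are shown because these neighbouring genes rose together with LPS. They are the RefSeq sequences of GRCm38.p6 (mm10) from 250 to 31 bases before the start, on the gene's strand, chr5:90890995-90891214, chr5:90903649-90903868 and chr5:90785851-90786070, all on the plus strand. RefSeq promoters were at hand for 23 of the 32 members. Capitals mark matches on either strand to GGGANTTNC, a core of sites of the NF-κB type, and to GCGTG, the core of the element bound by AhR; the matches do not overlap.
Cxcl1: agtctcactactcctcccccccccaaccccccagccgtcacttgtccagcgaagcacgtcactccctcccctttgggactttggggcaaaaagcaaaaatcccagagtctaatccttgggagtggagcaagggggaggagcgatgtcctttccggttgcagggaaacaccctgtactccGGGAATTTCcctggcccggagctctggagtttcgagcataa
Cxcl2: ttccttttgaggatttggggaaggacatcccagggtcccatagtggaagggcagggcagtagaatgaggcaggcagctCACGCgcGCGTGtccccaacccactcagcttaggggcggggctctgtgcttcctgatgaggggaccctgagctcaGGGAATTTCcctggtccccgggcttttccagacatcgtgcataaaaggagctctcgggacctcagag
Cxcl3: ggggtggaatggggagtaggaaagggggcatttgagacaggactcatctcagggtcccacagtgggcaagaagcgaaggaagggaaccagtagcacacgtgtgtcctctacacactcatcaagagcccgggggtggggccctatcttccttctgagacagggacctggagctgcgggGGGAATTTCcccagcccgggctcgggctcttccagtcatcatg

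The letters GGGANTTNC stood at 71, 97 and 73 bases before the start of Cxcl1, Cxcl2 and Cxcl3, each time as the same 9 bases. Over all 32851 RefSeq windows of this length 3.0% held a match, and among the members with a promoter 7 of 23 did, the others being Cxcl9, Cxcl10, Ccr3 and Cxcr2. GCGTG was present in 25.1% of all windows and in 7 of 23 members, with 2 matches in Cxcl2 and none in Cxcl1 or Cxcl3. For each motif a member counted if any of its windows held a match, while the share over all windows is per window. These matches describe the letters and not binding.

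Cxcl5, Cxcl3, Cxcl1 and Cxcl2 lie in this order in 1 cluster on chromosome 5 (mm10, chr5:90759360-90905938, 147 kb). Between Cxcl5 and Cxcl3 lie Ppbp and Pf4, which encode the platelet chemokines CXCL7 and CXCL4 and are not among the members. Without stimulation Cxcl5, Ppbp, Pf4 and Cxcl3, the 4 genes at the Cxcl5 end, were all called higher in AhR-deficient BMDMs, Ppbp by 2.81 ± 0.50 and Pf4 by 1.39 ± 0.27 on the log2 scale. Cxcl1 and Cxcl2 at the other end were not called (1.18 ± 0.67 and 0.27 ± 0.25). After LPS only Cxcl5 of the 6 tested genes was called, and Ppbp and Pf4 had negative values of -0.55 and -0.51 that did not pass. The genotype effects of Ppbp and Pf4 differed between the states (interaction -3.36, adjusted p = 0.00501, and -1.90, adjusted p = 0.0037).

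**Figure D3:**
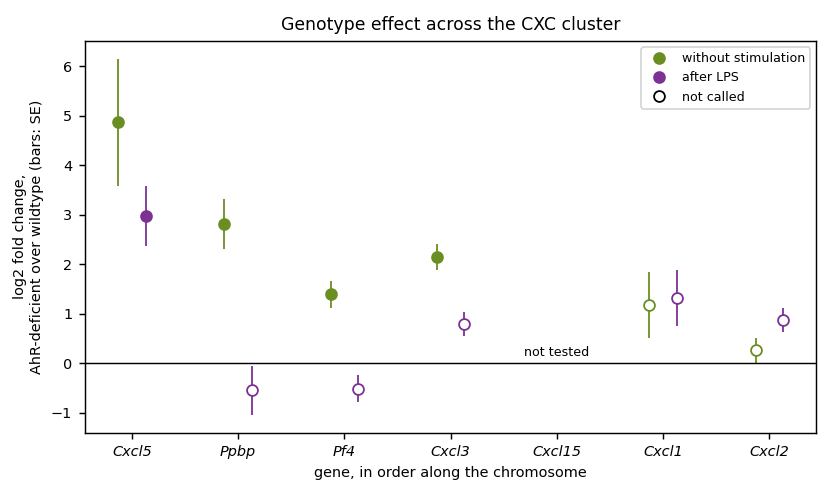
Genotype effect across the CXC cluster of chromosome 5, with the 7 genes in chromosomal order at equal spacing. Points give the log2 fold change of AhR-deficient over WT BMDMs with its standard error in both states, filled where called. The 4 genes on the left are called without stimulation, and Cxcl5 alone is called after LPS. Cxcl15 had too few counts for a test.

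Among the monocyte attractants Ccl2, Ccl7 and Ccl12, which bind CCR2, and the membrane-bound CX3CR1 ligand Cx3cl1, edgeR called none between genotypes without stimulation, and after LPS it called Ccl2 and Ccl12 higher. Ccl2 ranged from 5.03 to 14.2 CPM (median 10.6) in unstimulated WT and from 2.45 to 6.64 CPM (median 4.13) in unstimulated AhR-deficient BMDMs. These libraries overlapped, and the value of -1.27 ± 0.43 (log2) did not pass in edgeR (adjusted p = 0.0949). It passed in DESeq2 (-1.25, adjusted p = 0.045), with the run of 8 libraries as a factor (-1.33, adjusted p = 0.0113) and when only the unstimulated libraries were fitted (-1.25, adjusted p = 0.0226). After LPS Ccl2 ranged from 101 to 378 CPM (median 218) in WT and from 138 to 1625 CPM (median 741) in AhR-deficient BMDMs. Here 5 AhR-deficient libraries were above all WT libraries, and library 31 was the exception. The rise was 1.75 ± 0.43 (log2, adjusted p = 0.00744), or 3.36-fold. The change of the genotype effect with LPS was 3.01 ± 0.61 for Ccl2 (adjusted p = 0.00428) and had the smallest adjusted p of the 29 members in this test. LPS itself raised Ccl2 23.1-fold in WT and 187-fold in AhR-deficient BMDMs.

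Ccl12 showed the same pattern at a lower level. After LPS it ranged from 0.34 to 8.2 CPM in WT (median 2.67) and from 4.27 to 89.1 CPM in AhR-deficient BMDMs (median 21.6). The groups overlapped, and the difference was 3.16 ± 0.84 (log2, adjusted p = 0.0131), or 8.93-fold. Without library 39, the highest, it was 2.47 and no longer passed (adjusted p = 0.0504). The interaction for Ccl12 was 4.95 ± 1.29 (adjusted p = 0.0269), and it did not pass without libraries 19 and 33 (4.68, adjusted p = 0.0603) or in limma-voom (5.18, adjusted p = 0.202). Ccl7 rose with LPS from 0.578 ± 0.218 to 19.9 ± 10.4 CPM in WT and from 0.527 ± 0.299 to 45.9 ± 39.1 CPM in AhR-deficient BMDMs, and its genotype effect after LPS did not pass (1.21 ± 0.52, adjusted p = 0.148), but it passed once each library's slope on gene length was fitted (1.12, adjusted p = 0.0284). Cx3cl1 was not called in the edgeR fit with all libraries and no covariate, where its value after LPS was -1.45 ± 0.69 (adjusted p = 0.209), the opposite sign to the CCR2 ligands. With the run of 8 libraries as a factor it was called lower after LPS (-1.74, adjusted p = 0.0222), as it was without library 31 (-2.28, adjusted p = 0.0319). Ccl2, Ccl7, Ccl12 and Ccl8 lie together on chromosome 11 (mm10, chr11:82035571-82116799), with Ccl11 between Ccl7 and Ccl12.

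Fibroblasts are a known source of CCR2 ligands. The summed level of 7 fibroblast and stromal markers was between 2.20 and 17.4 CPM in LPS-stimulated WT and between 12.6 and 34 CPM in LPS-stimulated AhR-deficient BMDMs; 1 of 7 (Dcn) was called higher and none of the 7 was at 0 over a whole group. Without stimulation the sum was 0.081 to 6.24 CPM in WT and 0.159 to 6.62 CPM in AhR-deficient BMDMs, with none called. Their part in the results for Ccl2 and Ccl12 was not tested.

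**Figure D4:**
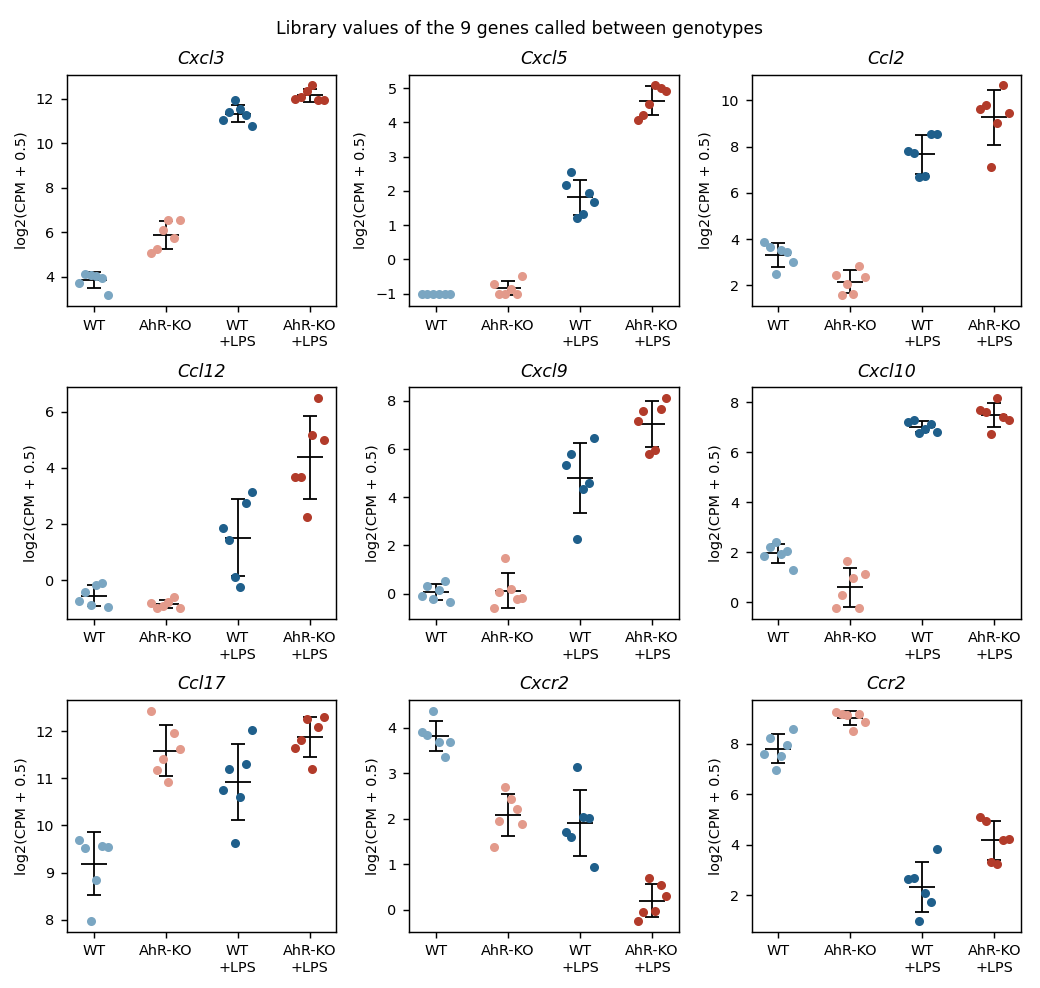
Library values of the 9 members called between genotypes in at least 1 state. Each point is 1 library on the scale log2(CPM + 0.5), and bars give the mean and SD of 6 libraries. Cxcl3 and Cxcr2 separate the genotypes in both states, Cxcl3 only just after LPS. Ccl17 separates them without stimulation and Cxcl5 after LPS. The other genes overlap in at least 1 library.

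The inflammatory CC ligands Ccl3, Ccl4, Ccl5, Ccl6 and Ccl9 had the highest summed level of the roles per length before stimulation, and edgeR called 0 of 5 between genotypes in either state. The unadjusted p was under 0.05 for 0 of 5 without stimulation and for 1 of 5 (Ccl5) after LPS. Ccl5 was called after LPS by DESeq2, by limma-voom and by edgeR with the run of 8 libraries as a factor (1.78, adjusted p = 0.0226), and edgeR called Ccl6 without library 37 (1.08, adjusted p = 0.0435). Ccl6 and Ccl9, CCR1 ligands that mouse macrophages make constitutively, moved in opposite directions with LPS. Ccl6 fell with LPS from 11169 ± 4150 to 3140 ± 1828 CPM in WT (3.56-fold, adjusted p = 0.000353) and from 14477 ± 6284 to 5195 ± 2612 CPM in AhR-deficient BMDMs (2.79-fold, adjusted p = 0.00197). Ccl9 rose from 2167 ± 1004 to 8844 ± 5623 CPM in WT (4.08-fold) and from 3186 ± 1273 to 14177 ± 6740 CPM in AhR-deficient BMDMs (4.45-fold). These genes are neighbours on chromosome 11 (mm10, chr11:83525778-83664683, from Ccl5 to Ccl4).

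Ccl3 and Ccl4, the macrophage inflammatory proteins 1α and 1β, rose with LPS in both genotypes. Ccl3 reached 199 ± 96.1 CPM in WT and 250 ± 71.3 CPM in AhR-deficient BMDMs, and Ccl4 reached 115 ± 43.7 and 152 ± 50.8 CPM. Their genotype effects after LPS were 0.33 ± 0.28 and 0.39 ± 0.22 on the log2 scale and did not pass. Ccl5, or RANTES, had the largest response of this role. It rose 489-fold in WT, from 0.896 ± 0.504 to 443 ± 254 CPM, and 1871-fold in AhR-deficient BMDMs, from 0.881 ± 0.638 to 1669 ± 1222 CPM. After LPS Ccl5 ranged from 140 to 816 CPM in WT and from 436 to 3377 CPM in AhR-deficient BMDMs, with overlap. The difference of 1.91 ± 0.64 (log2) stood just outside the threshold (adjusted p = 0.0513), and in DESeq2 it was 1.93 with an adjusted p of 0.0198.

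The lymphocyte attractants fell into CXCR3 ligands, CCR4 ligands, the CXCR6 ligand Cxcl16 and the CCR8 ligand Ccl8. Cxcl9, Cxcl10 and Cxcl11 are interferon-inducible ligands of CXCR3 in 1 cluster on chromosome 5 (mm10, chr5:92321347-92365485). Cxcl9 rose with LPS in both genotypes. After LPS it ranged from 4.38 to 86.9 CPM (median 31.6) in WT and from 55.1 to 277 CPM (median 166) in AhR-deficient BMDMs. The ranges overlapped, and the difference was 2.02 ± 0.59 (log2, adjusted p = 0.0255), or 4.05-fold. The call was lost without library 30 (adjusted p = 0.0598), 37 (0.0531) or 40 (0.0666), without libraries 37 and 39 together (0.0734) and when only the 12 LPS libraries were fitted (0.0535).

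Cxcl10 was called lower in unstimulated AhR-deficient BMDMs. It ranged from 1.94 to 4.80 CPM (median 3.47) in WT and from 0.34 to 2.60 CPM (median 1.08) in AhR-deficient BMDMs. The ranges overlapped, and the value was -1.53 ± 0.37 (log2, adjusted p = 0.011), which did not pass when only the 12 unstimulated libraries were fitted (-1.50, adjusted p = 0.115). After LPS Cxcl10 reached 131 ± 19.7 CPM in WT and 188 ± 61.2 CPM in AhR-deficient BMDMs, a difference of 0.51 ± 0.36 that did not pass (adjusted p = 0.467). The change of the genotype effect passed (2.04 ± 0.51, adjusted p = 0.0216), and with total library size it was 1.87 (adjusted p = 0.0522). Cxcl11 had 5 counts over the unstimulated WT and 2 over the unstimulated AhR-deficient libraries. After LPS it reached 20.9 ± 16.8 CPM in WT and 50.5 ± 21.8 CPM in AhR-deficient BMDMs, and the genotype effect of 1.27 ± 0.48 did not pass in edgeR (adjusted p = 0.0912). It passed in limma-voom (1.69, adjusted p = 0.00583), with the run of 8 libraries as a factor (1.57, adjusted p = 0.00229) and without library 38 (1.74, adjusted p = 0.0163; 1.74 and 0.0181 without library 34 as well). The ratio of LPS to no stimulation in AhR-deficient BMDMs was 9616, with a 95% interval from counting error alone of 2662 to 79411, and in WT it was 1499 (642 to 4619).

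The CCR4 ligands Ccl17 and Ccl22, products of macrophages and dendritic cells that attract regulatory and Th2 cells, are neighbours on chromosome 8 with Cx3cl1 between them (mm10, chr8:94745590-94812036). Ccl17 ranged from 250 to 822 CPM (median 742) in unstimulated WT and from 1940 to 5533 CPM (median 2940) in unstimulated AhR-deficient BMDMs. No library overlapped, and the rise was 2.38 ± 0.35 (log2, adjusted p = 7.15e-05), or 5.20-fold. With LPS Ccl17 rose 3.47-fold in WT (adjusted p = 0.000198) to 2185 ± 1142 CPM, and in AhR-deficient BMDMs its value of 3916 ± 1057 CPM was 1.20-fold that before LPS (adjusted p = 0.576). The genotype effect after LPS, 0.84 ± 0.34, did not pass (adjusted p = 0.117); without library 38 it was 1.12 (adjusted p = 0.0259), and without both libraries with few Y-linked counts 1.13 (adjusted p = 0.0313). The difference between the states missed the threshold (-1.54 ± 0.48, adjusted p = 0.0731) while it passed in DESeq2 (-1.54, adjusted p = 0.0294).

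Ccl22 was not called between genotypes in the edgeR fit with all libraries and no covariate. It stood at 96.8 ± 41.5 and 48.2 ± 28.6 CPM in unstimulated WT and AhR-deficient BMDMs and rose with LPS to 3311 ± 1523 CPM (34.2-fold) and 1615 ± 1662 CPM (33.5-fold). After LPS its genotype effect was -1.04 ± 0.53 (adjusted p = 0.252). Among LPS-stimulated AhR-deficient libraries, number 31 held 4863 CPM and the others between 366 and 1832 CPM; without it the effect was -1.79 (adjusted p = 0.0152), and with the run of 8 libraries as a factor it was -1.32 (adjusted p = 0.0413). Fitted with each library's slope on gene length it was called lower in both states (-1.21, adjusted p = 0.026 without stimulation and 0.0135 after LPS). Per length, Ccl17 exceeded Ccl22 by a ratio of 12.6 to 82.6 in unstimulated WT and of 135 to 1481 in unstimulated AhR-deficient libraries, which did not overlap. After LPS the ratio was 1.38 to 9.59 in WT and 4.58 to 54.0 in AhR-deficient libraries.

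Markers of dendritic cells moved with the genotype in these cultures. The sum of 8 markers was between 83.4 and 276 CPM in unstimulated WT and between 9.62 and 18 CPM in unstimulated AhR-deficient BMDMs, with 6 of 8 called lower and 1 (Clec9a) higher. After LPS the sum was between 135 and 1568 CPM in WT and between 5.08 and 163 CPM in AhR-deficient BMDMs, with 7 of 8 called lower. Cd207 was at 0 in all 6 LPS-stimulated AhR-deficient libraries. Library 31, the one with high Ccl22, had the highest sum of its group (163 CPM). Mast cell and basophil markers were called lower too, 5 of 8 without stimulation (sums of 7.67 to 24.9 CPM in WT and 2.02 to 4.91 CPM in AhR-deficient libraries) and 6 of 8 after LPS (19.1 to 56.6 and 5.28 to 13.8 CPM), with none at 0. The part of these cells in the values of Ccl17 and Ccl22 was not tested.

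Windows before the starts of Cxcl10 (chr5:92348920-92349139, minus strand) and Ccl17 (chr8:94810203-94810422, plus strand) are given from the same RefSeq table, since these were the 2 lymphocyte attractants called between genotypes without stimulation. Capitals mark GGGANTTNC, GCGTG and GAAANNGAA, a core of interferon-stimulated response elements.
Cxcl10: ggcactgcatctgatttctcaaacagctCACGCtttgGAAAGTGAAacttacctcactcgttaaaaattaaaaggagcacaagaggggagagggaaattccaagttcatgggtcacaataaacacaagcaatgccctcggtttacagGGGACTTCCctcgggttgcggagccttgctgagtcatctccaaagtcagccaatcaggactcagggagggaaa
Ccl17: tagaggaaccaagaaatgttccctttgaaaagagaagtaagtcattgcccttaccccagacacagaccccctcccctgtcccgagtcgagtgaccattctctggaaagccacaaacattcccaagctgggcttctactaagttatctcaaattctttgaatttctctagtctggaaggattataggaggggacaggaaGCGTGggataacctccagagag
The Cxcl10 window held all 3 motifs without overlap between them. The Ccl17 window held GCGTG alone, 52 bases before the start. GAAANNGAA was in 6.29% of all windows and in 5 of the 23 members with a promoter (Ccl3, Ccr2, Cxcl9, Cxcl10 and Cxcl14).

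Cxcl16, a transmembrane chemokine that also acts as a scavenger receptor, rose with LPS 9.0-fold in WT, to 1570 ± 472 CPM, and 9.99-fold in AhR-deficient BMDMs, to 2094 ± 274 CPM, and was not called between genotypes. Ccl8 was not tested in the main fit. It had no count in the 12 unstimulated libraries, and after LPS it had 11 counts over the WT libraries (0 to 0.122 CPM, counts in 2 of 6) and 348 over the AhR-deficient libraries (0.197 to 2.25 CPM, counts in 6 of 6). All AhR-deficient libraries were above all WT libraries, and the rise with LPS in AhR-deficient BMDMs was at least 156-fold. In the fit without a filter the genotype effect on Ccl8 after LPS was 5.06 on the log2 scale (adjusted p = 0.00563), and without libraries 34 and 38, where Ccl8 passed the filter, it was 5.80 (adjusted p = 0.00452). There it passed the filter through the LPS-stimulated AhR-deficient group, so a genotype difference was built into its being tested. Of the other ligands, Cxcl14 was not called with TMM factors in any comparison, was called lower with LPS under total library size (-1.08 in WT and -1.43 in AhR-deficient BMDMs), and stood between 3.67 ± 1.17 and 8.59 ± 3.84 CPM in the 4 groups. Ccl24, an eosinophil attractant, had at most 119 counts over a group.

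Set side by side per length, the roles took different courses. The lengths used for Cxcl1 (1875 bases), Cxcl2 (2068), Cxcl3 (3498) and Cxcl10 (2252) equal the whole gene span, introns included. That of Ccl17 (514 bases) is shorter than its span. Levels and shares per length can therefore be too low for these CXC genes against the CC genes. A comparison of groups for the same gene is not touched by this. The neutrophil attractants summed to 3.93 to 6.97 CPM per kb in unstimulated WT and 11.5 to 30.3 in unstimulated AhR-deficient libraries, and to 786 to 1390 and 1505 to 2279 after LPS, without overlap in either state. The monocyte attractants summed to 6.98 to 14.4 and 4.15 to 7.62 CPM per kb without stimulation, and to 101 to 384 and 145 to 1743 after LPS. The lymphocyte attractants summed to 550 to 1715 and 3866 to 10839 CPM per kb without stimulation and to 2768 to 10169 and 6063 to 12363 after LPS, and Ccl17 made up most of them. Of all 22 ligands per length, Ccl6 held 74.6 ± 4.46% in unstimulated WT, 51.2 ± 4.30% in unstimulated AhR-deficient, 12.9 ± 4.28% in LPS-stimulated WT and 13 ± 4.59% in LPS-stimulated AhR-deficient BMDMs (SD, n = 6). Ccl17 held 14.9 ± 4.4% in unstimulated WT and 40.8 ± 4.20% in unstimulated AhR-deficient BMDMs, and 31.1 ± 8.60% and 35 ± 6.28% after LPS. Neutrophil attractants held 0.0763 ± 0.0264% and 0.154 ± 0.0904% before and 8.68 ± 4.23% and 8.73 ± 2.39% after LPS in WT and AhR-deficient BMDMs.

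**Figure D5:**
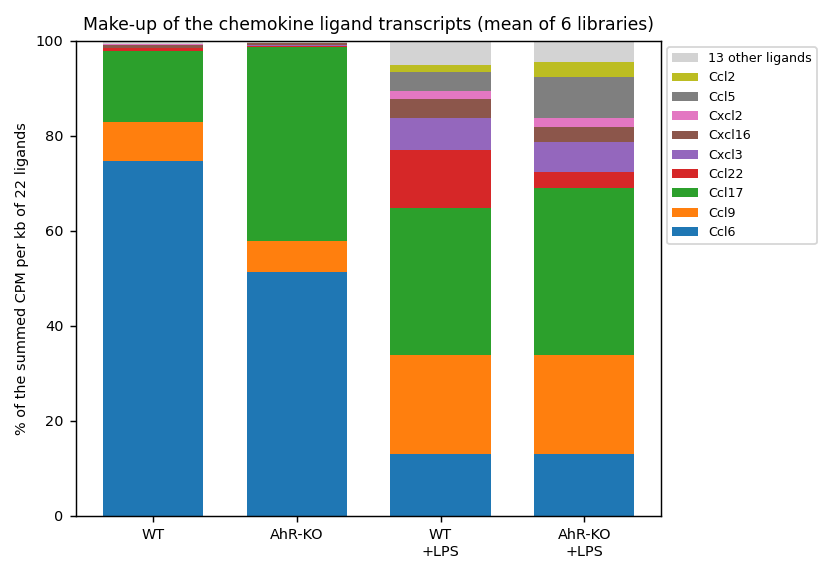
Make-up of the chemokine ligand transcripts in the 4 groups. Bars stack each ligand's share of the summed CPM per kb of 22 ligands, as the mean of 6 libraries. Ccl6 and Ccl17 fill most of the unstimulated bars, with the Ccl17 part larger in AhR-deficient BMDMs (40.8% against 14.9%). After LPS the Ccl9 part is larger and Ccl22, Cxcl3, Ccl5 and Cxcl16 become visible.

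Among the receptors Cxcr2, the neutrophil receptor for the CXC ligands above, was called lower in AhR-deficient BMDMs in both states. It ranged from 9.81 to 20.2 CPM (median 13.1) in unstimulated WT and from 2.11 to 5.95 CPM (median 3.77) in unstimulated AhR-deficient BMDMs. After LPS it ranged from 1.42 to 8.33 CPM (median 3.15) in WT and from 0.343 to 1.12 CPM (median 0.616) in AhR-deficient BMDMs. The genotypes did not overlap in either state, and the values were -1.81 ± 0.36 (log2, adjusted p = 0.00167) and -2.43 ± 0.37 (adjusted p = 6.3e-05). LPS lowered Cxcr2 3.74-fold in WT and 5.75-fold in AhR-deficient BMDMs. Beside it, markers of neutrophils, cells known for high Cxcr2, were lower as well. The sum of 10 neutrophil markers was between 2150 and 12927 CPM in unstimulated WT and between 277 and 822 CPM in unstimulated AhR-deficient libraries, with 8 of the 9 tested called lower. After LPS it was between 842 and 8565 CPM in WT and between 154 and 1035 CPM in AhR-deficient libraries, with 6 of 9 called lower. None of the 10 was at 0 in a whole group, and their part in the result for Cxcr2 was not tested.

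Ccr2, the receptor of the monocyte attractants, moved against its ligands with LPS. It fell from 240 ± 93.2 to 5.59 ± 4.41 CPM in WT (43.0-fold) and from 531 ± 94.7 to 19.7 ± 10.3 CPM in AhR-deficient BMDMs (26.9-fold). After LPS it ranged from 1.45 to 13.9 CPM (median 4.73) in WT and from 9.0 to 33.6 CPM (median 17.9) in AhR-deficient BMDMs. The highest WT library, number 38, overlapped the AhR-deficient range, and the difference was 1.82 ± 0.42 (log2, adjusted p = 0.00422), or 3.54-fold. Without stimulation the value was 1.15 ± 0.41 and did not pass (adjusted p = 0.123), and in limma-voom it was 1.22 with an adjusted p of 0.0158. It passed also without both libraries with few Y-linked counts (1.33, adjusted p = 0.0314) and with the run of 8 libraries as a factor (1.23, adjusted p = 0.0157). Beside Ccr2, the sum of 4 monocyte markers was 132 to 455 CPM in unstimulated WT and 14.6 to 59.3 CPM in unstimulated AhR-deficient libraries, and 742 to 1594 and 213 to 454 CPM after LPS, with Ly6c2 called lower in both states, 1 other called higher after LPS and none at 0. In both states 2 of the 4 had a positive genotype effect, and their part in the result for Ccr2 was not tested.

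Ccr1, the receptor for Ccl3, Ccl5, Ccl6 and Ccl9, was the most abundant receptor among the members per length, at 641 ± 185 CPM in unstimulated WT and 454 ± 128 CPM in unstimulated AhR-deficient BMDMs. It rose with LPS in AhR-deficient BMDMs to 1422 ± 461 CPM (3.13-fold, adjusted p = 2.94e-05), while in WT the value was 1.70-fold (1086 ± 498 CPM, adjusted p = 0.029), under the limit of a call. Cxcr4, the receptor of Cxcl12, was not called by edgeR with all libraries and TMM factors and had 50.6 ± 10.0 to 105 ± 28.8 CPM in the groups. After LPS its genotype effect was -0.84 ± 0.34 (adjusted p = 0.13), and it was called lower in limma-voom (-1.14, adjusted p = 0.0314), with total library size (-1.05, adjusted p = 0.0229), without library 31 (-1.11, adjusted p = 0.0355) and without library 32 (-1.08, adjusted p = 0.0463). Cx3cr1 was rare, at 0.833 ± 0.290 CPM in unstimulated WT and 0.318 ± 0.140 CPM in unstimulated AhR-deficient BMDMs, and its value of -1.38 ± 0.42 stood just outside the threshold (adjusted p = 0.0506). It passed in DESeq2 (-1.38, adjusted p = 0.0101), in limma-voom (-1.44, adjusted p = 0.0334) and with the run of 8 libraries as a factor (-1.38, adjusted p = 0.0365), and it was -1.46 without both libraries with few Y-linked counts (adjusted p = 0.0255). Cxcr5, known from B cells and follicular T cells, rose with LPS from 0.0473 ± 0.0431 to 1.55 ± 0.777 CPM in WT and from 0.0166 ± 0.0277 to 0.585 ± 0.731 CPM in AhR-deficient BMDMs. After LPS its genotype effect was -1.40 ± 0.74 (adjusted p = 0.278), and without library 31 it was called lower (-2.36, adjusted p = 0.0429). Of the 8 lymphocyte markers, Cd3e, Cd3d, Ncr1 or Trbc2 was at 0 in 1 or more whole groups, and Klrb1c was the 1 with enough counts for a test, and it was called higher in AhR-deficient BMDMs after LPS. Cxcr3 had 10 to 54 counts over a group and was not tested.

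Ccr3, the eosinophil receptor, rose with LPS in AhR-deficient BMDMs from 0.0543 ± 0.0831 to 0.694 ± 0.506 CPM (adjusted p = 0.000695) and was not called between genotypes (adjusted p = 0.446 and 0.786), except that without library 35 it was lower without stimulation (-2.86, adjusted p = 0.0394). The 4 eosinophil markers, of which Ccr3 is one, summed to 83.2 to 229 CPM in unstimulated WT, 41.3 to 157 CPM in unstimulated AhR-deficient, 45.3 to 171 CPM in LPS-stimulated WT and 22.3 to 103 CPM in LPS-stimulated AhR-deficient libraries, with 1 of 4 (Ear6) called lower in each genotype comparison. The atypical receptors responded to LPS. Ccrl2, which binds the attractant chemerin without signalling, rose 17.9-fold in WT to 239 ± 57.7 CPM and 27.9-fold in AhR-deficient BMDMs to 338 ± 68.2 CPM, with a genotype effect after LPS of 0.50 ± 0.18 that did not pass (adjusted p = 0.0659). Ackr3, a scavenger of Cxcl11 and Cxcl12, was called higher with LPS in AhR-deficient BMDMs (5.65 ± 1.26, adjusted p = 0.000705). In WT its value of 2.36 ± 1.11 did not pass (adjusted p = 0.101), and without both libraries with few Y-linked counts it was 3.36 (adjusted p = 0.0477). In LPS-stimulated AhR-deficient BMDMs Ackr3 ranged from 0 to 7.86 CPM, with the highest values in libraries 31 and 32, which also had the highest sums of fibroblast and stromal markers (20.4 and 34 CPM).

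Other genes of the chemokine system were taken from a list of 30 that are not members, of which 13 were tested. Without stimulation 7 of 13 were called between genotypes, 3 higher in AhR-deficient BMDMs (Ppbp, Pf4 and Cmklr1, the chemerin receptor, at 1.89) and 4 lower. The latter were Ccr7, which guides dendritic cells to lymph nodes, at -4.65 ± 0.71, and Ccl1, Ccr4 and Ccr10, which had no count in the unstimulated AhR-deficient group and stood lower there, Ccl1 at least 27.8-fold, Ccr4 at least 24.2-fold and Ccr10 at least 15.1-fold. Ccl1 and Ccr10 entered the test through the WT groups, so a genotype difference was built into their being tested. After LPS 4 of 13 were called, 2 higher and 2 lower. Ccr9 was among those called higher, by 1.04 ± 0.33 (adjusted p = 0.04). Ccr7 was lower by a log2 value of -2.09 ± 0.63 (adjusted p = 0.0287) and Ccl1 at least 24.8-fold lower. LPS called 7 of 13 higher in WT, and 6 higher and 1 lower (Ppbp) in AhR-deficient BMDMs.

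The interaction, which asks whether the genotype effect differed between the states, was called at an adjusted p of at most 0.05 with no limit on the fold. It was called for 4 of 29 members, against 4.3% of all tested genes (1.95% higher and 2.34% lower). Ccl2, Ccl12 and Cxcl10 shifted towards AhR-deficient BMDMs with LPS, and Cxcl3 shifted away from them. Each of the 3 upward shifts joined a negative value without stimulation to a positive value after LPS, while Cxcl3 was higher in AhR-deficient BMDMs in both states. Cxcl1, Cxcl2, Ccl3, Ccl4, Ccl6, Ccl9, Cxcl16 and Ccl22 had interaction values between -0.03 and 0.61 on the log2 scale that did not pass.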

How the data were processed

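RNA sequencing was available for 24 libraries in 4 groups of 6, assigned from the sample titles. The authors mapped paired 100 bp reads by GSNAP on mm10 and assigned those with a single alignment to genes of Ensembl release 98 in featureCounts 2.0.1, reverse-stranded per the file headers. The deposited values are raw counts per gene without normalization. Counting only uniquely aligned reads can lower the counts of near-identical copies, and how far this touches the tandem chemokine genes was not measured. Overlapping genes of members lie on the opposite strand. The table holds 55421 genes; 92 spike-in rows with 1 count in all were left out. Symbols came from a table of Ensembl identifiers, positions (mm10) and lengths from the deposited file, and promoters from RefSeq (GRCm38.p6).

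Counts were fitted in 1 model of all libraries, with a coefficient per group, in edgeR 4.0.16 (R 4.3.3) with TMM factors, the filterByExpr filter, which kept 16593 genes, and a two-sided quasi-likelihood test with robust dispersions, with Benjamini-Hochberg adjustment over all genes kept. A call needs an adjusted p of at most 0.05 together with a change of 2-fold or more in either direction, the thresholds the authors used with DESeq2; the interaction needs the adjusted p alone. CPM are mean ± SD over 6 libraries. Per length means divided by the kilobases of merged exons. The biological coefficient of variation was 49.1%, more than counting error for abundant genes. A group without a count is taken at 3 counts over the group for lower bounds, and these and the interval for Cxcl11 cover counting error only.

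Members, roles and lists were chosen with earlier results of these data known. All members are named, as are genes of the other chemokine list and marker lists that were called, apart from a few that are not reported here. Alternatives were DESeq2 size factors, total library size, no filter, a mean of at least 1 CPM, DESeq2 1.42.0, limma-voom 3.58.1, only the libraries compared, the run of 8 as a factor, the slope of each library on gene length as a covariate, and each library left out. Leaving out libraries 19 and 33, 37 and 39, or both with few Y-linked counts (34 and 38) was added after the data had been seen. On simulated counts for 16593 genes, of which 200 were changed by a log2 fold of 2, edgeR recovered 68% for the genotype effect without stimulation, 75.5% after LPS, 68% for LPS in WT, 67% for LPS in AhR-deficient BMDMs, and 54.5% in the interaction test. It called 2 to 8 unchanged genes per comparison. Genes were simulated independently, without the component shared among the real libraries, so these rates need not hold for the data. Values were tabulated and drawn with Python 3.11.15, numpy 2.4.6, pandas 2.3.3 and matplotlib 3.10.9.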

Additional observations from a re-analysis of the deposited data

Results flagged for a closer look

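In 15 of 125 groups of 6 libraries with counts of a member, 1 library stood apart from the other 5 by a gap over Dixon's 95% critical value. For normally distributed values chance alone marks about 1 in 20 groups. The CPM were not put on a log scale, so this rate does not carry over to them. The libraries and neighbouring genes are also not independent. All were the highest library. Among LPS-stimulated AhR-deficient BMDMs these were library 39 for Cxcl1 (530 CPM) and Ccl12 (89.1 CPM), library 31 for Ccl22 (4863 CPM) and Cxcr5 (2.01 CPM), library 24 for Ccl24 (0.162 CPM) and library 23 for Cxcr3 (0.343 CPM). Among unstimulated WT BMDMs library 33 was highest for Ccl6 (19272 CPM), Ccl9 (4093 CPM) and Cxcr4 (106 CPM). Among unstimulated AhR-deficient BMDMs library 27 was highest for Cxcl9 (2.30 CPM), Cxcl11 (0.0222 CPM) and Ccl24 (0.0665 CPM), and library 35 for Ccr3 (0.219 CPM). Among LPS-stimulated WT BMDMs library 38 was highest for Ccr2 (13.9 CPM) and library 29 for Cxcr2 (8.33 CPM).

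The genotype effect differed between the states by the interaction test for 7 genes of the chemokine system. On the log2 scale the difference was 3.01 for Ccl2 (adjusted p = 0.00428), 4.95 for Ccl12 (0.0269), 2.04 for Cxcl10 (0.0216) and -1.35 for Cxcl3 (0.0279) among the members. It was 5.86 for Ccr4 (0.00961), -1.90 for Pf4 (0.0037) and -3.36 for Ppbp (0.00501) among the other genes. Ccr4 had no count in unstimulated AhR-deficient BMDMs, so its value is a fitted one and no bound.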

How the results depend on the processing

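No alternative reversed a called member. All called members of both LPS effects stayed called in every alternative that tested them (240 and 260 values for WT and AhR-deficient BMDMs); leaving out single libraries was run for the genotype effects only. Without stimulation the members called lower rose from 2 to 4 with total library size, the DESeq2 test or the run of 8 as a factor, and to 5 with the length slope as a covariate, where Ccl2 and Cx3cr1 were added in several of these. After LPS the members called higher rose from 5 to 8 in limma-voom, with the run of 8 as a factor and without both libraries with few Y-linked counts, and to 9 with the length slope. Those called lower rose from 1 to 2 with total library size and limma-voom, 3 with the run as a factor and 4 with the length slope. Leaving out 1 library gave between 5 and 8 higher (most without library 38) and between 1 and 5 lower (5 without library 31, 2 without library 32). For the interaction the members called higher rose from 3 to 6 with the length slope, and those called lower from 1 to 2 with total library size, the DESeq2 test, the run as a factor and the length slope. Over all genes, calls lower without stimulation went from 592 to 660 (total library size), 730 (DESeq2), 706 (run) and 832 (length slope). After LPS, calls higher over all genes went from 360 to 459 in limma-voom, 474 with the run and 696 with the length slope. Calls lower went from 1027 to 974, 1189 and 1301 in the same alternatives. Interaction calls over all genes went from 324 higher and 389 lower to 1367 and 1426 with the length slope. The cause of these shifts was not tested. With total library size the calls over all genes after LPS split into 236 higher and 1351 lower in place of 360 and 1027, those of LPS in WT into 1622 and 3163 in place of 2186 and 1951, and those of LPS in AhR-deficient BMDMs into 1730 and 4398 in place of 2504 and 2601.

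The 11 genotype calls rest on 6 libraries per group. Cxcl5 without stimulation, at 22 counts, and Ccl12 and Cxcl9 after LPS were lost under the alternatives named with them, and Cxcl10 without stimulation and its interaction under 1 each; Cxcl3, Ccl17, Ccl2, Ccr2 and Cxcr2 kept their genotype calls in every alternative run. Even at 45106052 counts or more, genes such as Ccl8, Ccl24 and Cxcr3 remain limited by counting. No paired analysis was run because the groups share no replicate numbers, and the labels do not tie unstimulated to LPS-stimulated libraries. The 2 libraries with few Y-linked counts, 34 and 38, hold the same place among the WT libraries of their groups. Whether libraries at the same place came from the same animal was not tested.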
